A study of Homo sapiens with 36 samples.

Results

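The genes described here are 10 genes of glucose use, out of 60675 genes in the count table: the hexokinases HK1, HK2 and HKDC1, the glucose transporters SLC2A1 and SLC2A3, the alpha-arrestins TXNIP and ARRDC4, the fructose bisphosphate regulators PFKFB3 and PFKFB4, and the lactate dehydrogenase LDHA. They were chosen by symbol, with results on these same libraries already known, so their changes with treatment are given as a description without a p-value. The word "called" stands below for a gene past 2 thresholds that were applied to all genes.

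RNA was sequenced from 2 human cell lines, SW1783 (an astrocytoma line) and HT29 (a colorectal adenocarcinoma line), each in 6 groups of 3 replicates, 36 libraries in all. Batch B held a vehicle group and groups given 500, 100 or 20 µg/mL of a hot water extract of the monkshood *Aconitum carmichaeli* Debeaux (ACD), named high, medium and low. Batch A held a separate vehicle group and cells given wortmannin at 10 µM, the positive control, which blocks PI3K. All groups were collected after 24 h, and the vehicle is labelled as 0.1% DMSO. SW1783 was grown in Leibovitz's L-15 without CO2, a medium formulated with galactose in place of glucose, and HT29 in DMEM, which contains glucose, under 5% CO2. Cell line and culture medium therefore cannot be told apart in any comparison of the lines. Each line is a single established line, and nothing in the labels says that replicates came from separate cultures on separate days, so the spread between replicates may be technical.

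Glucose enters most cells through the facilitative transporters encoded by the SLC2A genes and is trapped by hexokinases, which phosphorylate it. HK1 is the broadly expressed form, HK2 the inducible form of muscle, fat and many tumours, and HKDC1 a related hexokinase found in epithelia such as gut. PFKFB3 and PFKFB4 set the level of the fructose bisphosphate that stimulates phosphofructokinase, and LDHA turns pyruvate into lactate at the end of glycolysis. TXNIP binds thioredoxin and lowers glucose uptake at the cell surface, ARRDC4 is its close relative, and the transcription factor pair MondoA and MLX, which responds to phosphorylated hexoses, is known to drive both genes.

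Total counts ranged from 15941255 to 33866644 per library. EPCAM, KRT20, CDX2, CDH1 and VIL1, markers of gut epithelium, were detected in all 18 HT29 libraries, whereas in SW1783 the astrocyte markers GFAP, S100B, AQP4 and ALDH1L1 were at or near 0 and SLC1A3, VIM, COL1A2 and CD44 were present. In HT29, replicate 2 of the high dose stood apart most. Counts of replicates 1 and 2 differed by a chi-square of 64.3 per degree of freedom, against 9.33 for replicates 1 and 3. Values of the members in HT29 at the high dose are therefore also given without replicate 2. Replicate 1 of the HT29 batch B vehicle, which enters every comparison of ACD with vehicle there, differed by 13.8 and 15.8 from replicates 2 and 3. Replicates 2 and 3 of that vehicle differed by 3.78. At the HT29 low dose replicates 1 and 3 differed by 19.97. Vehicles of batches A and B with the same replicate number differed by 1.44 to 1.61 per degree of freedom and those with different numbers by 1.96 to 16.1, so the vehicles of both batches may not be separate cultures. They are never pooled here. The share of counts from the mitochondrial ribosomal RNAs averaged 0.932% in the SW1783 vehicle of batch B, 3.14% at the low dose, 7.83% at medium and 5.93% at high. In HT29 it averaged 1.18%, 1.09%, 2.1% and 12% in the same order, and 1.02% and 1.36% with wortmannin in SW1783 and HT29. The part of these shares in the changes below was not tested.

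The promoter letters of both alpha-arrestin genes are shown because TXNIP and ARRDC4 moved in the same direction in HT29 and are known targets of the same factors. Each run below holds the 250 bases before the RefSeq start, read 5′ to 3′ on the strand of the gene, with TXNIP at chr1:145996580-145996829 on the minus strand and ARRDC4 at chr15:97960453-97960702 on the plus strand of GRCh38.p14.
TXNIP: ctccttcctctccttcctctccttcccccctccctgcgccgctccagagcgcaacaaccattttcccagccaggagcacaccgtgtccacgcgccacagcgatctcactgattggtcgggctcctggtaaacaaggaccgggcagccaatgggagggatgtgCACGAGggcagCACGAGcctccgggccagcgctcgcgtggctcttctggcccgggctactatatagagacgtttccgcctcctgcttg
ARRDC4: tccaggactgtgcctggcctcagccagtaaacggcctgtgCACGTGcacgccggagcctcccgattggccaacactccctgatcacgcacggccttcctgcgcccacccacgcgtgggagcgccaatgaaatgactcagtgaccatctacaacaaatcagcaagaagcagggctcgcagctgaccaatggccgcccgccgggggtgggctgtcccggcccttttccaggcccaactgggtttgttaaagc
Capitals mark the motifs searched on both strands. In TXNIP they are a pair of CACGNG motifs 5 bases apart, the spacing of the known carbohydrate response element, with the first base at position -88 from the start. In ARRDC4 they mark a full E-box (CACGTG) at position -210, and no spaced pair with both motifs in the same orientation was matched in the window. Of 35116 RefSeq promoters of 300 bases, 20 (0.057%) held the spaced pair in the same orientation and 2548 (7.26%) held CACGTG. Spaced pairs in opposite orientation were not searched, so 0.057% is the share of the arrangement seen in TXNIP only. RefSeq promoters were matched for 9 of the 10 genes. The other members with CACGTG were LDHA at -185 and -87, HK2 at -194 and -149 of its second listed start, and PFKFB3 at -108 of its second listed start. A match of letters says nothing of binding in these cells.

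The counts are per gene, by the annotation that the authors used. The positions below are those of GENCODE v44 on GRCh38, whose exons may differ from those counted. HK2 lies at chr2:74834127-74893359 on the plus strand, SLC2A1 at chr1:42925353-42958893 and SLC2A3 at chr12:7919230-8019007 on the minus strand. TXNIP lies at chr1:145992435-145996579 on the minus and ARRDC4 at chr15:97960703-97973833 on the plus strand, and neither overlaps another annotated gene. PFKFB3 is at chr10:6144934-6254644 on the plus strand, PFKFB4 at chr3:48517684-48562015 on the minus strand and LDHA at chr11:18394560-18408425 on the plus strand. Annotated lncRNAs lie antisense to HKDC1, SLC2A1, SLC2A3 and PFKFB3, and the protein-coding gene UCN2 overlaps PFKFB4 on the same strand, so some reads of these genes may be shared.

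In SW1783, ACD went with opposite changes within glucose use. At the high dose HKDC1, HK2 and SLC2A3 were higher, PFKFB3, PFKFB4 and LDHA were lower, and TXNIP had its lowest level at the medium dose. In HT29, ACD went with lower TXNIP and ARRDC4, in the order of the doses. Wortmannin went with higher TXNIP in both lines. A gene is called where the DESeq2 Wald test gave an adjusted p under 0.05 and the log2 fold change exceeded 0.585 in size, a 1.5-fold change. At the SW1783 high dose 6 of the 10 members were called, 3 higher and 3 lower, where 8.39% of all genes tested were called higher and 9.27% lower. The members' median log2 fold change was 0.13 and that of all genes -0.01. In RNA from a whole culture, a change in every cell and a change in some of the cells cannot be told apart. At the medium dose 1 was called higher and 1 lower (2.32% and 1.47% of all genes), and at the low dose 0 were called (0.097% higher, 0.0215% lower), with TXNIP and ARRDC4 left out of adjustment there by the filter on low counts. At that low dose 5 members had an unadjusted p under 0.05, and edgeR called 1.

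In HT29, 9 members received an adjusted p at each dose. The high dose had 0 called higher and 2 called lower (1.36% and 1.76% of all genes), the medium dose 0 and 1 (0.407% and 0.378%) and the low dose 0 and 0 (0.134% and 0.145%), where 0 members had an unadjusted p under 0.05 in DESeq2 and edgeR called 0. With wortmannin 1 member was called higher and 0 lower in each line. The shares of all genes with wortmannin were 1.73% higher and 0.987% lower in SW1783 and 1.98% and 0.765% in HT29. Between the vehicles of batches B and A no member was called in either line (0.00348% of all genes in SW1783, 0.0% in HT29), 0 had an unadjusted p under 0.05 in DESeq2, and edgeR called 0. These vehicles may not be separate cultures, so this comparison cannot show how far a batch moves the members. Because the members were chosen with these contrasts known, nothing is read from their shares or from counts of members at an unadjusted p, here or below.

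**Figure D1:**
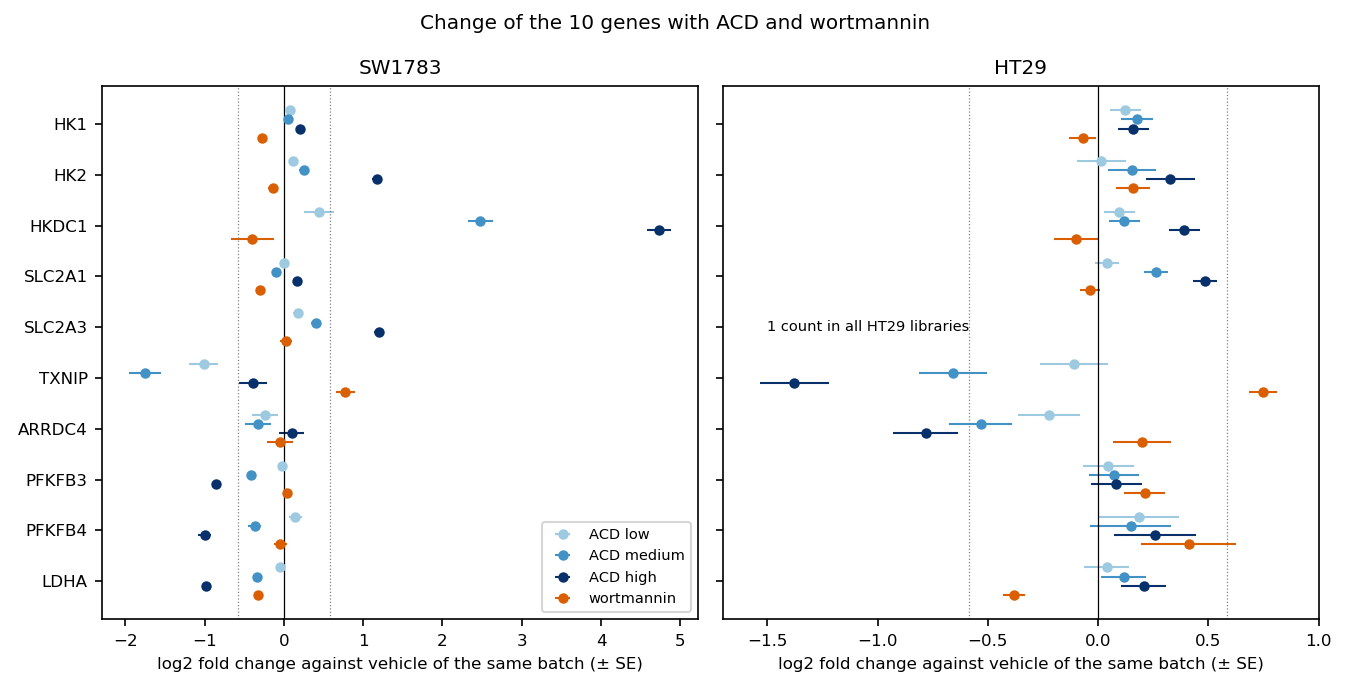
Log2 fold changes (x axis, ± SE) of the 10 genes (y axis) against the vehicle of the same batch in SW1783 and HT29, with the x axes on different scales, for the low, medium and high doses of ACD and for wortmannin. Dotted lines mark a log2 fold change of 0.585 in size. HKDC1 reached 4.73 in SW1783, and TXNIP lay to the left of 0 at every ACD dose and to the right with wortmannin in both lines.

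HKDC1 had the largest change of the 10 genes. In SW1783 its normalized counts (counts divided by DESeq2's size factor, on the scale of the line and batch) were 36.9, 53.4 and 37.5 in the 3 vehicle libraries of batch B. They were 55.8, 61.2 and 58.6 at the low dose, 225, 253 and 240.3 at medium and 1062, 1190.1 and 1175 at high. No library of a dose overlapped with the vehicle or with the next dose, and the gap between vehicle and low dose was small. On the log2 scale the fold change was 0.44 ± 0.19, 2.48 ± 0.16 and 4.73 ± 0.15 in the order of rising dose, the last a 26.5-fold higher level. With wortmannin the counts were 42.4, 40.7 and 43.8 against 59.1, 59.1 and 48.7 in the batch A vehicle, a log2 fold change of -0.40 ± 0.28.

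HT29 expressed HKDC1 at a higher level from the start. Its counts were 599.7, 674 and 636 in vehicle, 676, 696 and 679 at the low dose, 698, 703 and 682 at medium and 827, 853 and 839 at high. Low and medium libraries overlapped, and the 3 high-dose libraries lay above all others. The high dose thus differed from vehicle by 0.39 ± 0.07 on the log2 scale, which did not reach the size threshold and was 0.38 without replicate 2, and wortmannin gave -0.10 ± 0.10.

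HK2 was at 1096, 1095 and 1036 in SW1783 vehicle, 1135, 1202 and 1165 at the low dose, 1301, 1323 and 1213 at medium and 2496, 2439 and 2326 at high. The high-dose libraries were 2.25-fold above vehicle (log2 fold change 1.17 ± 0.05), whereas the medium dose gave 0.25 ± 0.05 and the low dose 0.12 ± 0.06. In HT29 the counts were 1185, 1402 and 1417 in vehicle and 1842, 1392 and 1781 at the high dose. Replicate 2 of the high dose lay within the range of the vehicles, and the log2 fold change was 0.33 ± 0.11 with it and 0.43 without it. Leaving out high replicate 1 gave 0.25 and leaving out high replicate 3 gave 0.28. HK2 was not called at that dose in HT29. Wortmannin gave -0.14 ± 0.06 in SW1783 and 0.16 ± 0.08 in HT29.

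HK1, the gene directly downstream of HKDC1 on the same strand of chromosome 10 (HKDC1 at chr10:69220332-69267552, HK1 at chr10:69269984-69401884, 2432 bases between them), had smaller differences than its neighbour in SW1783. Its counts were 7205, 7006 and 6869 in SW1783 vehicle and 8032, 8187 and 8128 at the high dose, a log2 fold change of 0.21 ± 0.03 with no overlap of the groups. The medium and low doses gave 0.05 ± 0.03 and 0.07 ± 0.03. In HT29 the 3 doses lay between 0.12 and 0.18, and the high dose was at 0.16 with replicate 2 and 0.20 without it. With wortmannin HK1 was at 6626, 6571 and 6679 against 8215, 8139 and 7803 in SW1783, a log2 fold change of -0.28 ± 0.03, and in HT29 the value was -0.07 ± 0.06.

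The make-up of the 3 hexokinase transcripts differed accordingly. Per kilobase of exon, HKDC1 took 0.831% ± 0.182 of the summed level of HK1, HK2 and HKDC1 in SW1783 vehicle (mean ± SD, n = 3). This share was 1.08% ± 0.0208 at the low dose, 4.27% ± 0.246 at medium and 14.5% ± 0.768 at high. In HT29 the share was 17.4% ± 0.548 in vehicle and 19.4% ± 1.62 at the high dose, with replicate 2 the highest. HK2 moved from 15% ± 0.213 to 22% ± 0.856 of the sum in SW1783, and HK1 from 84.2% ± 0.387 to 63.5% ± 0.301. The HKDC1 share of SW1783 at the high dose thus lay below that of untreated HT29.

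**Figure D2:**
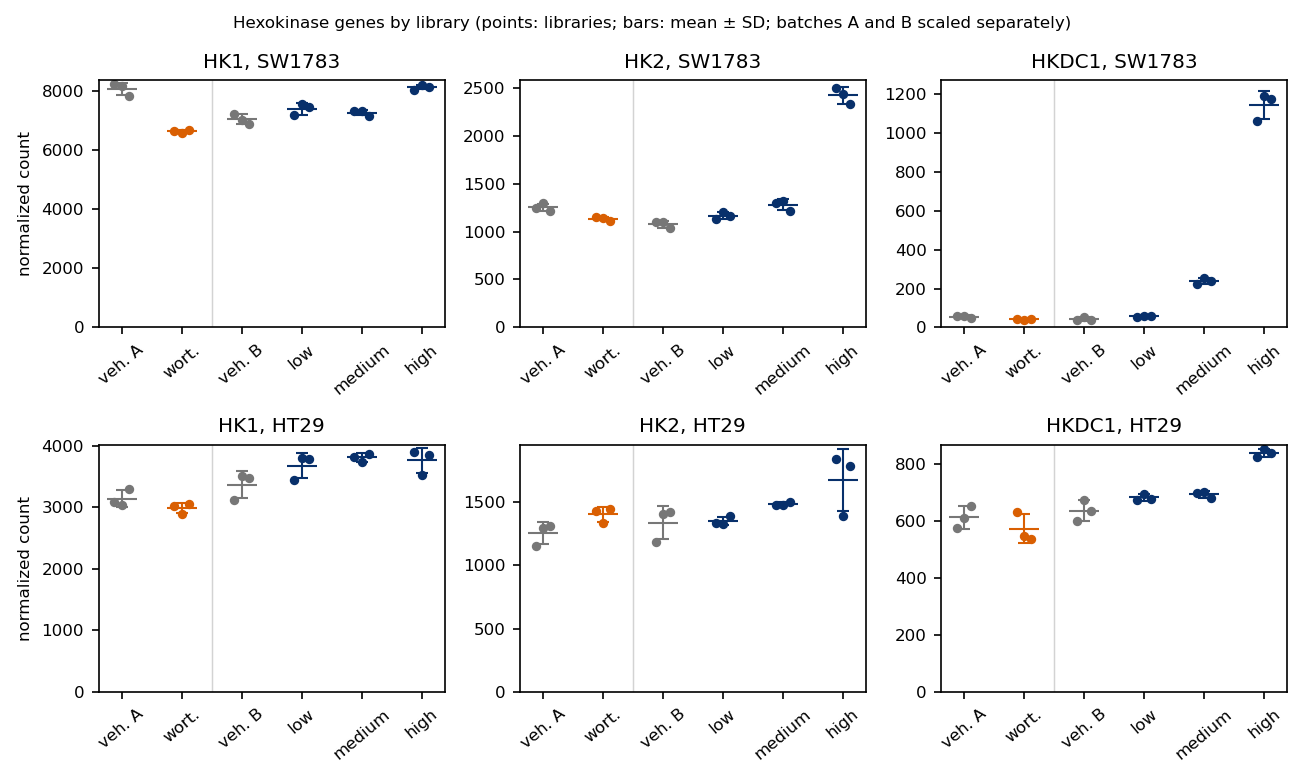
Normalized counts (y axis, from 0) of HK1, HK2 and HKDC1 in every library of SW1783 (top) and HT29 (bottom), by group (x axis: vehicle and wortmannin of batch A, then vehicle and the low, medium and high doses of batch B). Points are libraries and bars the mean ± SD of 3. HKDC1 in SW1783 climbs from 42.6 ± 9.39 in vehicle to 1142 ± 70.2 at the high dose, and HK1 stays within a narrow range in each line.

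Among the transporters, SLC2A3 (GLUT3), a transporter with a high affinity for glucose, was detected in SW1783. Its counts there were 698, 679.9 and 683 in vehicle, 791, 764 and 776 at the low dose, 869, 919 and 931 at medium and 1601, 1523 and 1604 at high. The groups did not overlap, and the log2 fold change was 0.18 ± 0.06, 0.40 ± 0.06 and 1.20 ± 0.06 in the order of rising dose. Wortmannin gave 0.02 ± 0.07. In HT29 a single count was found in 1 of 18 libraries, and no fold change is given. SLC2A14, a near-identical copy whose reads RSEM may divide with SLC2A3, stood at 0 in all HT29 groups and at a mean of at most 1.02 normalized counts in any SW1783 group.

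SLC2A1 (GLUT1), the widespread basal transporter, was the larger of the pair per kilobase in both lines. In SW1783 it was at 3453, 3379 and 3325 in vehicle and 3744, 3882 and 3799 at the high dose, a log2 fold change of 0.17 ± 0.04. The medium dose gave -0.10 ± 0.04 and wortmannin -0.30 ± 0.04. In HT29 it was at 13059.7, 12657 and 12857 in vehicle, 13419, 13049.5 and 13171 at the low dose, 15606, 14806 and 15878 at medium and 18814, 16811 and 18365 at high. Each HT29 library at the medium and high doses was above every vehicle library, with log2 fold changes of 0.26 ± 0.05 and 0.49 ± 0.05, below the size threshold, and 0.53 at the high dose without replicate 2. Per kilobase, SLC2A3 made up 15.6% ± 0.141 of the summed level of both transporters in SW1783 vehicle and 27.4% ± 0.917 at the high dose.

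TXNIP had a different order of doses in each line. In SW1783 its counts were 189.6, 172 and 171 in vehicle, 82.7, 96.9 and 83.7 at the low dose, 62.6, 56.8 and 39.6 at medium and 157, 141 and 109 at high. None of these groups overlapped, and their order from the lowest was medium, low, high and vehicle. The log2 fold change was -1.01 ± 0.18, -1.75 ± 0.20 and -0.39 ± 0.18 in the order of rising dose. Only the medium value was called. At the low dose DESeq2 gave no adjusted p, because its filter on low mean counts left the gene out, and edgeR's quasi-likelihood test placed the same fold change (-1.01) past both thresholds.

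The comparison of the high with the medium dose was added after the values had been seen. In SW1783 it gave 1.36 ± 0.20 for TXNIP, 2.25 ± 0.10 for HKDC1, 0.92 ± 0.05 for HK2 and 0.80 ± 0.06 for SLC2A3, the 4 members called higher, and -0.63 ± 0.09 for PFKFB4 and -0.64 ± 0.03 for LDHA, the 2 called lower. Over all genes 9.75% were called in that comparison. TXNIP at the high dose was thus higher than at medium and lower than in vehicle, whereas the other 5 had the same sign in both comparisons. In HT29 TXNIP alone was called, at -0.72 ± 0.16 (0.712% of all genes), and this value was -0.57 without replicate 1 of the high dose, under the size threshold, and -0.94 without replicate 2.

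In HT29, TXNIP was at 1334, 1311 and 1431 in vehicle, 1204, 1205 and 1372 at the low dose, 873, 829 and 883 at medium and 403, 691 and 487 at high. Low-dose and vehicle libraries overlapped, and the medium and high doses lay apart from them and from each other, with replicate 2 the highest of the high dose. The log2 fold change was -0.11 ± 0.15, -0.66 ± 0.15 and -1.38 ± 0.16 in the order of rising dose, and -1.60 at the high dose without replicate 2. The medium value passed both thresholds with DESeq2 and missed that on adjusted p with edgeR.

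Wortmannin went the other way. In SW1783 TXNIP was at 354, 396 and 426 against 231, 219.6 and 238 in its vehicle, a log2 fold change of 0.77 ± 0.12. In HT29 it was at 2194, 2101 and 2146 against 1275, 1244 and 1318, a log2 fold change of 0.75 ± 0.06. No library of the treated groups overlapped with its vehicle, and the difference between the lines in this response was 0.01 ± 0.11. ACD and wortmannin were compared with vehicles of different batches.

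ARRDC4 followed TXNIP in HT29. Its counts there were 225, 249 and 248 in vehicle, 228, 212 and 178 at the low dose, 182, 165 and 155 at medium and 128, 169 and 131 at high. The medium and high doses overlapped with each other and lay below every vehicle library, with log2 fold changes of -0.53 ± 0.14 and -0.78 ± 0.15, and -0.90 at the high dose without replicate 2. In SW1783 ARRDC4 was at 117, 132 and 123 in vehicle, 105, 106 and 105 at the low dose, 97.4, 93.2 and 106 at medium and 141, 128 and 130.0 at high. The low and medium libraries were below all vehicle libraries and the high-dose libraries overlapped with the vehicles, with log2 fold changes of -0.24 ± 0.16, -0.33 ± 0.16 and 0.10 ± 0.16. Wortmannin gave -0.05 ± 0.16 in SW1783 and 0.20 ± 0.13 in HT29, so the higher TXNIP was not matched by a called change of its relative.

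**Figure D3:**
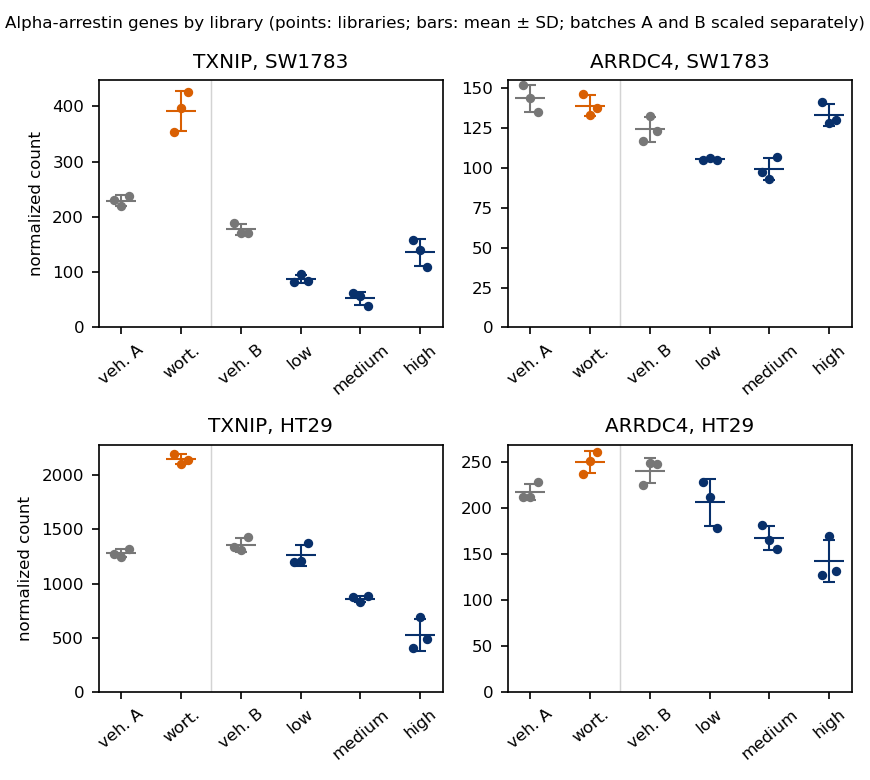
Normalized counts (y axis, from 0) of TXNIP and ARRDC4 in every library of SW1783 (top) and HT29 (bottom), by group (x axis as in the hexokinase plot). Points are libraries and bars the mean ± SD of 3. TXNIP in SW1783 is lowest at the medium dose (53 ± 12) and higher again at the high dose (136 ± 24.4), while in HT29 it declines to 527 ± 148 at the high dose.

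LDHA, PFKFB3 and PFKFB4 shared a course in SW1783. LDHA was at 38933, 37224 and 37733 in vehicle, 35562, 36742 and 37993 at the low dose, 29895, 29769 and 30030.4 at medium and 19572, 19161 and 19004 at high. Low-dose and vehicle libraries overlapped, and the high dose held 1.97-fold fewer counts than vehicle (log2 fold change -0.98 ± 0.03). The medium dose gave -0.34 ± 0.02.

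PFKFB3, the isoform with strong kinase activity, was at 1928, 1937 and 1881 in vehicle, 1389.8, 1459 and 1441 at the medium and 1056, 1046 and 1078 at the high dose. PFKFB4, its relative, was at 600.5, 541 and 559 in vehicle, 445, 422 and 450.4 at the medium and 298, 278 and 274 at the high dose. Neither gene's medium or high group overlapped with vehicle or with each other. The log2 fold changes at the high dose were -0.85 ± 0.05 for PFKFB3 and -1.002 ± 0.09 for PFKFB4, and at the medium dose -0.42 ± 0.05 and -0.37 ± 0.08. At the low dose they were -0.03 ± 0.05 and 0.14 ± 0.08.

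HT29 did not show this course. At the high dose LDHA was at 23314, 30331 and 22825 against 22373, 21584 and 22290.1 in vehicle, with replicate 2 far above the others. The log2 fold change was 0.21 ± 0.10 with that library and 0.06 without it. PFKFB3 and PFKFB4 gave 0.08 ± 0.12 and 0.26 ± 0.18, with PFKFB3 counts of 922, 708 and 944 against 776, 845 and 820.3. Without replicate 2 of the high dose these values were 0.19 for PFKFB3 and 0.30 for PFKFB4, and PFKFB3 was at 0.03 without replicate 1 and 0.01 without replicate 3. With wortmannin LDHA was lower in both lines without overlap of the groups, at 35626, 35950.5 and 35886 against 46399, 44186 and 44678 in SW1783 and 15377, 16126 and 15752 against 21118, 19822 and 20665 in HT29. These changes, -0.33 ± 0.02 and -0.38 ± 0.05, were below the size threshold. PFKFB3 and PFKFB4 were at 0.04 ± 0.04 and -0.04 ± 0.08 in SW1783 with wortmannin and at 0.21 ± 0.09 and 0.41 ± 0.22 in HT29.

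**Figure D4:**
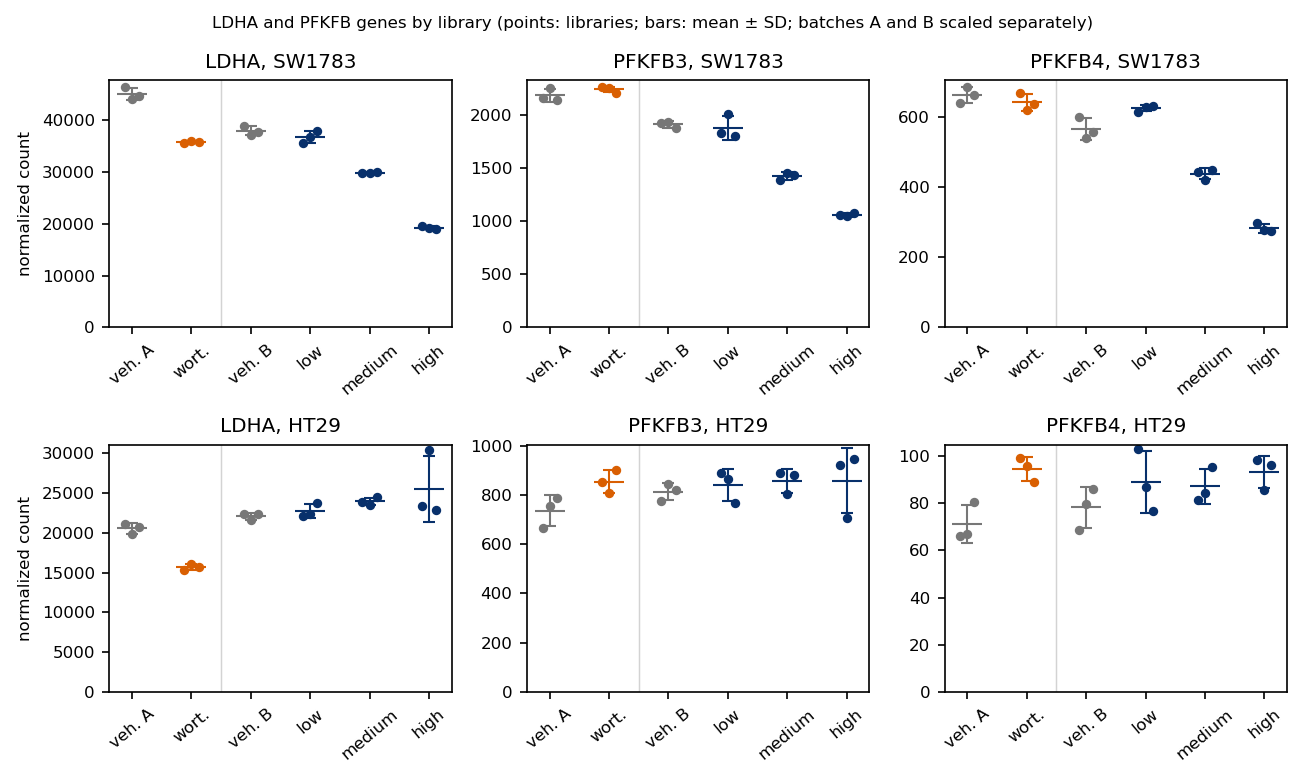
Normalized counts (y axis, from 0) of LDHA, PFKFB3 and PFKFB4 in every library of SW1783 (top) and HT29 (bottom), by group (x axis as in the hexokinase plot). Points are libraries and bars the mean ± SD of 3. All 3 genes step down from the low to the high dose in SW1783, LDHA to 19246 ± 294, while HT29 shows no such steps and replicate 2 of the high dose is the highest LDHA library of that line.

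The lines also differed before treatment. The genes were chosen with results on these same libraries already known, so the p-values of this comparison are a description. In the batch B vehicles, 9 of the 10 members were called between SW1783 and HT29, 5 higher and 4 lower in SW1783, where 50.7% of all genes were called. For those 9 the adjusted p of DESeq2 was 3.34e-06 (that of ARRDC4) or smaller. Higher in SW1783 were PFKFB4 at 3.09 ± 0.14 on the log2 scale, PFKFB3 at 1.47 ± 0.07, HK1 at 1.30 ± 0.06 and LDHA at 1.02 ± 0.04, together with SLC2A3, which was at least 261-fold higher against a floor of 3 counts per HT29 library. Lower in SW1783 were HKDC1 at -3.65 ± 0.17, TXNIP at -2.70 ± 0.10, SLC2A1 at -1.68 ± 0.04 and ARRDC4 at -0.72 ± 0.15. HK2 was at -0.07 ± 0.09, with an adjusted p of 0.498 in the DESeq2 test. The vehicles of batch A gave the same 9 calls, which is no independent check, because they may not be separate cultures from those of batch B.

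On a per-kilobase scale LDHA was the most abundant member in both vehicles, with 6901 ± 164 normalized counts per kilobase of exon in SW1783 and 3389 ± 73.6 in HT29 (mean ± SD, n = 3). HK1 followed in SW1783 at 1119 ± 26.7 and SLC2A1 in HT29 at 1798 ± 30.8. TXNIP was the eighth of the 10 in SW1783, at 53.9 ± 3.24, and the fourth in HT29, at 349 ± 17.1. HKDC1 was the least abundant in SW1783, at 11 ± 2.42, and stood at 139 ± 7.92 in HT29. In SW1783 the levels of SLC2A3 (104 ± 1.51) and PFKFB4 (102 ± 5.57) lay within their spread of each other.

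Differences between the lines in response were fitted as interactions, SW1783 minus HT29. At the high dose 7 members were called (14.6% of all genes), at the medium dose 2 (3.41%), at the low dose 1 (0.261%) and with wortmannin 0 (3.39%), where 5 had an unadjusted p under 0.05 in DESeq2 and edgeR called 0. At the high dose the interaction was 4.30 ± 0.15 for HKDC1, 0.80 ± 0.12 for HK2, -1.23 ± 0.10 for LDHA, -1.31 ± 0.16 for PFKFB4 and -0.98 ± 0.12 for PFKFB3. It was positive for TXNIP (0.95 ± 0.22) and ARRDC4 (0.84 ± 0.18), and for SLC2A1, which was not called, it was -0.36 ± 0.06. Without HT29 high replicate 2 the 7 members were called as well, with HKDC1 at 4.30, HK2 at 0.69, LDHA at -1.09, PFKFB4 at -1.35, PFKFB3 at -1.10, TXNIP at 1.16 and ARRDC4 at 0.94. At the medium dose TXNIP had the opposite sign, -1.12 ± 0.24, and at the low dose -0.93 ± 0.23. The low-dose call was lost with edgeR and without any 1 of 5 libraries (HT29 low replicate 3, SW1783 low replicates 1 and 3, and vehicle replicate 1 of each line), at -0.92 to -0.86.

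The genes most like HKDC1 and TXNIP were sought among 11888 genes over the 12 groups, each group mean being centred on its line, by Pearson correlation of log2 values. For HKDC1 they were RND3 (r = 0.998), MID1IP1 (0.996) and KLF4 (0.995). Of the members HK2 (0.932) and SLC2A3 (0.93) were the nearest and PFKFB3 (-0.967) the most opposite. SLC2A3 had a single count in HT29, so its value rests on the 6 groups of SW1783, where it was at 0.975. Over the 6 groups of HT29 alone HK2 was at 0.685 and PFKFB3 at -0.0135 with HKDC1, SLC2A1 (0.935) was the nearest member and ARRDC4 (-0.919) the most opposite. For TXNIP they were RBBP5 (0.959), CCDC186 (0.948) and FBXL20 (0.933), and ARRDC4 was at 0.785. Within a line the correlation of TXNIP with ARRDC4 was 0.74 in SW1783 and 0.972 in HT29, over 6 groups each. These values share libraries and controls and are a description only.

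A further 63 genes of glucose use were read from the same fits, in 7 lists written from general knowledge but with earlier results of these data known. Genes printed below with an adjusted p at the SW1783 high dose were named because they were called there. Those p-values are therefore a description. At the SW1783 high dose 54 of them were tested, 5 were called higher and 6 lower, where 8.39% of all genes were called higher and 9.27% lower, with a median log2 fold change of -0.15 against -0.01 for all genes. In HT29 52 were tested, 2 were called higher and 1 lower (1.36% and 1.76% of all genes), with a median of 0.10 against 0.01. At the SW1783 medium dose 1 was called higher and 1 lower of 48 (2.32% and 1.47% of all genes), and at the low dose 0 of 41 (0.097% and 0.0215%). The medium and low doses in HT29 had 0 called of 52, where at most 0.407% of all genes were called in a direction. Wortmannin had 3 called higher of 48 in SW1783 (1.73% of all genes) and 1 higher and 1 lower of 50 in HT29 (1.98% and 0.765%).

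Of the 10 tested enzymes of lower glycolysis at the SW1783 high dose, 3 were called, all lower, where 9.27% of all genes were called lower. An adjusted p under 0.05 with a lower level was found for 8 of the 10 and for 21.8% of all genes. The list median was -0.41, against -0.01 for all genes. PGAM1, a phosphoglycerate mutase, fell by 0.73 on the log2 scale (SE 0.04, adjusted p = 6.38e-64 in the DESeq2 test), and PGK1, a phosphoglycerate kinase, fell by 0.69 (SE 0.03, DESeq2 adjusted p = 3.03e-144). PGK1 was at 21207, 21088 and 21112 in vehicle and 13062, 13217 and 13073 at the high dose, with no overlap. ALDOC, an aldolase, had -0.82 ± 0.18. A further 5 enzymes, GAPDH (-0.37), ALDOA (-0.38), PKM (-0.38), ENO1 (-0.44) and TPI1 (-0.49), were lower and under the size threshold. The neuronal enolase ENO2 was at 0.53, also under it. The muscle enolase ENO3 was at 0.95, past that threshold in size but not called. In HT29 the list median was 0.16 and no gene was called, with 3 of 10 higher at an adjusted p under 0.05 (4.43% of all genes), and without high replicate 2 the median was 0.07 with 2 of 10 higher. The interaction was called for 6 of the 10 (14.6% of all genes), PGK1 (-0.91 ± 0.15), PGAM1 (-0.80 ± 0.12) and ALDOC (-1.19 ± 0.17) among them, and for 5 without HT29 high replicate 2, where PGK1 was at -0.69, PGAM1 at -0.65 and ALDOC at -1.10. With wortmannin the list median was -0.21 in SW1783 and -0.26 in HT29, with 8 of 9 and 7 of 10 genes lower at an adjusted p under 0.05 (19.6% and 11.7% of all genes) and 1 gene called, ALDOC in HT29 at 0.63 ± 0.11, which was 0.56 and under the size threshold without vehicle replicate 3.

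Of the genes that act beside PFKFB3 and PFKFB4, PFKFB2, the phosphorylation-regulated isoform of heart and other tissues, went the other way. It was at 334, 322 and 336 in SW1783 vehicle and 1030.3, 1121 and 1079 at the high dose, that is, 1.71 ± 0.08 on the log2 scale (adjusted p of the DESeq2 test 2.69e-91), with 0.60 ± 0.09 at the medium dose. That medium value was 0.55 without medium replicate 1 and 0.58 without vehicle replicate 2, both under the size threshold. In HT29 it was at 0.14 ± 0.14, or 0.27 without high replicate 2, and the interaction of 1.52 ± 0.17 was called, as was the 1.39 without that library. At the high dose 3 of the 6 tested genes in its list were higher at an adjusted p under 0.05 in SW1783 and 2 of 6 in HT29 (23.1% and 4.43% of all genes), PFKP among them at 0.50 and 0.52.

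Around pyruvate, 1 of 13 tested genes was called higher and 1 lower at the SW1783 high dose (8.39% and 9.27% of all genes). PDP1, which activates pyruvate dehydrogenase, rose by 0.74 ± 0.04, and PDK3, which inhibits it, was at -0.86 ± 0.12. PDK3 counts were 281, 299.6 and 299.7 in SW1783 vehicle and 167, 145 and 174 at the high dose. In HT29 PDK3 was called in the opposite direction at 0.67 ± 0.21, with counts of 47.7, 46.8 and 44.7 and 66.6, 75.2 and 78.4, and the interaction was -1.58 ± 0.20. The HT29 call was lost, at log2 fold changes of 0.60 to 0.68, without any 1 of the vehicle replicates, without high replicates 2 or 3, with the replicate block (DESeq2 adjusted p = 0.0763) and in a fit of only those groups (adjusted p = 0.181). The lactate exporter SLC16A3 was at -0.50 in SW1783, under the size threshold.

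In the list of galactose and glycogen entry, GYS1, the glycogen synthase of muscle and most tissues, was called at the SW1783 high dose, with a log2 fold change of -0.89 ± 0.05. GYS1 was at 2176, 2176 and 2152 in vehicle and 1220.1, 1111 and 1188 at the high dose. In HT29 it was at 0.01 ± 0.15, with replicate 2 of the high dose apart from the others, and at 0.19 without that library. Of 6 tested glucose sensors and other alpha-arrestins, 1 was called higher at the SW1783 high dose (8.39% of all genes). An adjusted p under 0.05 with a higher level was found for 5 (23.1% of all genes), MLXIP (MondoA) at 0.38 and MLX at 0.19 among them. In HT29 MLXIP was at -0.51, or -0.29 without high replicate 2, and MLX at 0.11. Of the other hexose phosphorylation genes 1 of 4 tested was called higher in SW1783 and 1 of 3 in HT29 (8.39% and 1.36% of all genes). Of the other transporters 1 of 7 was called lower in SW1783 and 1 of 6 in HT29 (9.27% and 1.76% of all genes).

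**Figure D5:**
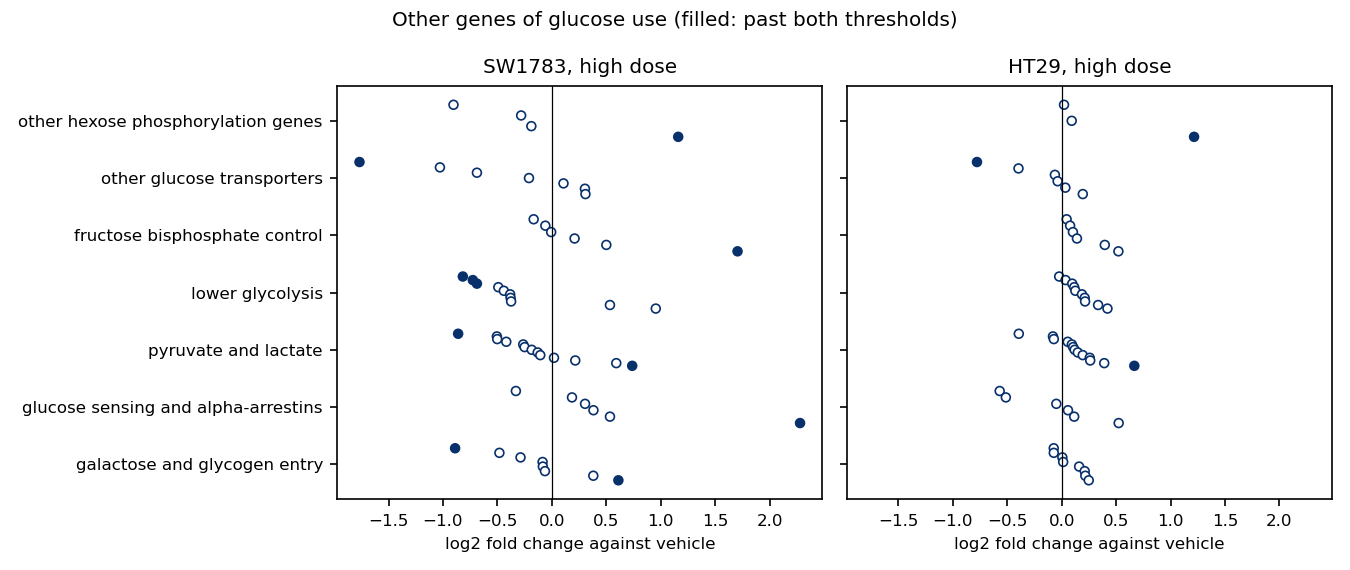
Log2 fold change at the high dose against vehicle (x axis) of each tested gene in the 7 lists of other glucose genes (y axis), in SW1783 and HT29. Filled circles are genes past both thresholds. The lower glycolysis genes of SW1783 lie mostly left of 0 (list median -0.41) and those of HT29 mostly right of it (0.16, or 0.07 without replicate 2).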

How the data were processed

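The authors made directional mRNA libraries. They aligned reads with STAR, naming GRCh38, and counted with RSEM. The deposited table holds RSEM expected counts per gene and library, not normalized. RSEM divides reads that fit several genes by a model, and its strand setting is not given in the sources used here, so reads of overlapping antisense genes may be mixed. The expected counts, of which 8.84% were not whole, were rounded here to whole numbers.

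The members and the lists were chosen with earlier results of these data known. Treatments were set against the vehicle of the same batch with DESeq2 1.42.0 (R 4.3.3) and its two-sided Wald test, as in the study. Fits used the 12 libraries of a line in batch B or the 6 in batch A. Interactions used the 24 libraries of both lines in batch B or the 12 in batch A, and the lines in vehicle were compared on 6 libraries of batch B. The Benjamini-Hochberg adjustment ran over all genes of a contrast that DESeq2's independent filtering kept, and an adjusted p that DESeq2 left out was not replaced. A call needed an adjusted p under 0.05 and a change of more than 1.5-fold (0.585 on the log2 scale). Named were all 10 members and, of each other list, genes called at the SW1783 high dose whose mean normalized count reached 100, at most 4 of each sign. Genes like HKDC1 and TXNIP were the 3 with the highest correlation among genes with that mean over all libraries. Alternatives were edgeR 4.0.16, TMM size factors, a filter of 10 counts in 3 libraries, a replicate block, fits of only the groups compared, the batch A vehicles and leaving out each replicate. The scripts were tested on simulated data.

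A count of 0 allows up to 3 counts, or 0.0886 to 0.188 CPM (counts scaled to a common library total), for counting error only. Vehicle and treated libraries of the same replicate number showed no steady pairing. Correlations of their deviations ran from -0.459 to 0.326, and 4 of 24 pairs exceeded 0.1. Pairing among the doses was not tested, and vehicles of batches A and B did resemble each other by number. Positions are from GENCODE v44 and RefSeq on GRCh38. The methods name GRCh38 together with an older build's name, so positions entered no test. Exon lengths for the per-kilobase scale are those of the union of exons in GENCODE v44, which may differ from the exons counted. One result of the galactose and glycogen list is not reported here.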

Additional observations from a re-analysis of the deposited data

Results flagged for a closer look

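The following differences between the cell lines in response passed a test of the difference itself (an interaction term) and the size threshold. They are SW1783 minus HT29 on the log2 scale, and line and culture medium cannot be told apart in them. At the high dose HKDC1 was at 4.30, HK2 at 0.80, TXNIP at 0.95 and ARRDC4 at 0.84. PFKFB3 was at -0.98, PFKFB4 at -1.31 and LDHA at -1.23 at the same dose. At the medium dose HKDC1 was at 2.34 and TXNIP at -1.12. At the low dose TXNIP was at -0.93, a call lost with edgeR and without any 1 of 5 libraries. The genes were chosen with responses in these libraries known, so these values are a description. Single outlying values were not searched for by a gap test, which needs groups of at least 4.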

How the results depend on the processing

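Counts of called members stayed within 1.5 times their values under TMM size factors, the low-count filter, fits of only the groups compared and the batch A vehicles. With edgeR 0 members were called at the HT29 medium dose in place of 1 (TXNIP), 1 in place of 0 at the SW1783 low dose (TXNIP) and 0 in place of 1 for the interaction at the low dose (TXNIP). Of the other glucose genes, 4 in place of 2 were called with wortmannin in HT29 by edgeR, and 1 in place of 3 at the HT29 high dose in a fit of only the groups compared. The cause of these shifts was not tested.

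Under the replicate block the count of other glucose genes at the HT29 high dose was 1 in place of 3, and no other count left the 1.5-fold range. The members called at the SW1783 high dose were 6 with the block as without it. For the lines in vehicle, a block of the numbers shared by both lines, chosen after the values were seen, gave 9 called members as without it, and a block within each line left no residual degrees of freedom. Vehicle and treated libraries of the same number showed no steady pairing, and pairing among the doses was not tested.

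Leaving out each replicate in turn, called members ranged from 1 to 2 at the HT29 medium dose, from 0 to 1 for the HT29 comparison of the high with the medium dose (0 without high replicate 1) and from 0 to 1 for the interaction at the low dose. That last call, TXNIP, was lost without HT29 low replicate 3, HT29 vehicle replicate 1, SW1783 low replicates 1 or 3, or SW1783 vehicle replicate 1. ARRDC4 was called at the HT29 medium dose without medium replicate 1, and PFKFB4 in the interaction at the medium dose without HT29 vehicle replicate 3. The other glucose genes ranged from 1 to 3 at the HT29 high dose (1 without any of the vehicle replicates), from 1 to 2 with wortmannin in HT29 (1 without vehicle replicates 1 or 3) and from 1 to 2 at the SW1783 medium dose (1 without medium replicate 1 or vehicle replicates 2 or 3). LDHA between the high and medium doses in HT29 was at -0.05 without high replicate 2, against 0.09 with it.

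With 3 replicates and low counts of HKDC1 and TXNIP in SW1783, small changes of these genes were not resolved, and SLC2A3 in HT29 lay at the floor. Called changes at the SW1783 high dose kept direction and call without any one replicate: HKDC1 stayed between 4.64 and 4.94. TXNIP at the medium dose stayed between -1.88 and -1.57.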

Other observations

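Some less abundant genes of the lists also passed both thresholds. They were picked out after their values were seen. GCKR, the regulator of glucokinase, was called higher at the high dose in both lines, by 1.16 ± 0.31 in SW1783 and 1.22 ± 0.40 in HT29, at mean normalized counts of 31.3 and 18.8. The GCKR call in HT29 was lost, at 1.05 to 1.34, without any 1 of the vehicle replicates and without high replicates 1 or 3. It was also lost with the replicate block (DESeq2 adjusted p = 0.095) and in a fit of only the groups compared (DESeq2 adjusted p = 0.211). SLC2A12, a facilitative transporter, was lower in SW1783 at the high dose (-1.77 ± 0.27) and the medium dose (-0.81 ± 0.25) and higher with wortmannin (0.96 ± 0.16), the pattern of signs that TXNIP showed at the medium dose and with wortmannin. In HT29 SLC2A12 was at -0.40 ± 0.18 at the high dose, not called, and at -0.22 without high replicate 2. SLC5A1, the sodium-coupled glucose transporter of gut epithelium, was lower at the HT29 high dose, at -0.78 ± 0.11. MLXIPL (ChREBP), a relative of MondoA, was at 2.28 ± 0.61 at the SW1783 high dose with a mean of only 9.36 normalized counts. With wortmannin in SW1783, PDK2 was at 0.72 ± 0.09 and PDK4, both inhibitors of pyruvate dehydrogenase, at 0.69 ± 0.28. MPC1, a subunit of the mitochondrial pyruvate carrier, was at -0.62 ± 0.11 with wortmannin in HT29. It was -0.54 without vehicle replicate 1 and under the size threshold. The SLC2A12 call at the medium dose was lost without vehicle replicate 3 (-0.68), and that of PDK4 without vehicle replicates 2 or 3 or any 1 wortmannin replicate (0.63 to 0.71) and with the replicate block (0.69, DESeq2 adjusted p = 0.138).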
